A study of Mus musculus with 12 samples.

Results

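The 10 genes described here are Notch receptors, Notch ligands and nuclear effectors of the pathway, chosen by name from the 48586 genes with counts in Sol8, a myoblast line established from mouse soleus muscle. These comprise the receptors Notch1, Notch2 and Notch3, the ligands Dll1 and Jag1, the DNA-binding mediator Rbpj, and the effectors Hes1, Hey1, Heyl and Hes6. All 10 were among the 20415 genes tested. The study sequenced mRNA of 3 libraries each of Gne KO differentiated, WT differentiated, Gne KO proliferative and WT proliferative cells. Gne encodes the enzyme that starts sialic acid synthesis, and the Gne KO cells are 1 clone of Sol8 with a short CRISPR/Cas9 deletion in an early coding exon. Proliferative cells of both genotypes were kept in fetal calf serum and differentiated cells in horse serum, so that the kind of serum cannot be told apart from the state. Effects of the deletion and other traits of this clone cannot be told apart.

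Notch signalling runs between touching cells. A ligand of the Delta or Jagged family on one cell pulls on a Notch receptor of its neighbour, the receptor is cut by an ADAM protease and then by γ-secretase, and its freed intracellular part enters the nucleus, where it joins RBPJ and turns on target genes. In skeletal muscle this pathway keeps satellite cells quiescent and holds back myoblast differentiation, and the genes of the Hes and Hey families, which encode basic helix-loop-helix repressors, are its best known targets. Receptors carry O-linked sugars that Fringe enzymes extend, and this alters which ligand they answer to.

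Total counts lay between 22612038 and 29389759 per library. Myoblast markers were present (Myf5 had a normalized count of at least 939 and Myod1 of at least 189 in each library), as were Cd34 (6234 to 19089), Vcam1 (5471 to 10151), Itga7 (2719 to 19057) and Sdc4 (3646 to 6325), which satellite cells also carry. Of 7 satellite cell and myoblast markers tested, 1 rose and 4 fell in Gne KO against WT in the differentiated state. In the proliferative state 2 rose and 3 fell. In differentiated libraries Myod1 had 189 to 246 in Gne KO and 1257 to 1398 in WT, and Megf10 97.4 to 132 and 893 to 1047. Cd34 had 17068 to 17205 in Gne KO and 8350 to 8964 in WT there. In proliferative libraries Myf5 had 939 to 1241 in Gne KO and 2089 to 2294 in WT. Pax7 and Calcr, which mark satellite cells more narrowly, had 6 and 0 counts over all 12 libraries. The summed level of 12 myotube markers was 1590.0 to 2848 in Gne KO differentiated libraries, 96179 to 108256 in WT differentiated, 811 to 1897 in Gne KO proliferative and 22866 to 68682 in WT proliferative libraries. All 12 were lower in Gne KO than in WT in both states at an adjusted p under 0.05 from limma. Markers that other cell types share with cultured mesenchymal cells were abundant. Among smooth muscle and pericyte markers Acta2 had 19350 to 98184 normalized counts, Pdgfrb 2965 to 9606 and Cspg4 689 to 3604, and of the 9 tested 3 fell and none rose in Gne KO differentiated against WT differentiated cells, while 5 rose and 2 fell in proliferative cells. Their summed level was 25733 to 27705 in Gne KO differentiated, 38706 to 46958 in WT differentiated, 81397 to 120140 in Gne KO proliferative and 71676 to 82317 in WT proliferative libraries. Of 5 fibroblast markers tested 3 rose and 1 fell in the differentiated state and 1 rose and 1 fell in the proliferative state. Among them Pdgfra had 3933 to 4144.5 in Gne KO differentiated, 2002 to 2453 in WT differentiated, 4729 to 5247 in Gne KO proliferative and 1528 to 1723 in WT proliferative libraries. Col1a1 was the lower one in Gne KO. It had 30066 to 31358 in Gne KO and 35544.5 to 42630 in WT differentiated libraries. In proliferative libraries it had 26572 to 33772 in Gne KO and 91451 to 133340.5 in WT. Dcn had 11328 to 12645 in Gne KO and 2640 to 3218 in WT differentiated libraries, and 230 to 363 and 265 to 347 in proliferative libraries. Col1a2 and Col3a1 stood at 100690 or more in each library. Of 5 endothelial markers 3 fell in the differentiated and 3 rose in the proliferative state, at a summed level of at most 256. The part of any of these cell types in the results was not tested. Some more specific markers stayed under a normalized count of 10 in every library. These were Cdh5 and Cldn5 (endothelium), Myh11, Rgs5 and Abcc9 (smooth muscle and pericytes) and Itgam (immune cells). Tcf21 (fibroblasts) and Adgre1 (immune cells) were at 0. Other markers of these lists reached higher counts. Pecam1 had 17.3 to 158, Tek 9.99 to 65.9 and Vwf 12.2 to 36.55 (endothelium). Cd68 had 45.2 to 94.8 and Csf1r 6.85 to 41.6 (immune cells). Cnn1 had 0 to 276, Tagln 812 to 8019 and Smtn 1685 to 4109 (smooth muscle). In a bulk culture, fewer cells of a type and less RNA per cell cannot be told apart. Gne itself had 205 to 212 normalized counts in Gne KO differentiated cells, 264 to 285 in WT differentiated, 232 to 344 in Gne KO proliferative and 255 to 278 in WT proliferative cells. The count spans the whole gene, which a short deletion leaves mostly in place, so it does not check the genotype labels.

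WT proliferative replicate 1 stood apart from the other 2 libraries of its group in 7 of the 10 genes. Its normalized count over the mean of replicates 2 and 3 was 3.47 for Hey1, 2.65 for Heyl, 2.02 for Dll1, 1.96 for Notch1, 1.76 for Hes6, 1.73 for Notch3 and 1.65 for Hes1. It was 1.04 for Notch2, 0.946 for Jag1 and 0.825 for Rbpj. Over 10684 genes that averaged 100 or more normalized counts, this ratio had a median of 0.996 and a range of 0.785 to 1.30 between the 5th and the 95th percentile, and 1.24% of these genes were at 2 or more. Over these genes the SD of the log2 difference from the other 2 libraries of its group was 0.291 for this library. For Gne KO proliferative replicates 1, 2 and 3 that SD was larger, at 0.400, 0.302 and 0.305. The myotube sum of WT proliferative replicate 1 was 68682, against 23090 and 22866 in replicates 2 and 3. The log2 fold changes of the 10 genes that use proliferative WT cells are therefore also given without this library (called replicate 1 where WT proliferative cells are meant), and the part of myotube RNA in the values was not tested.

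**Figure D1:**
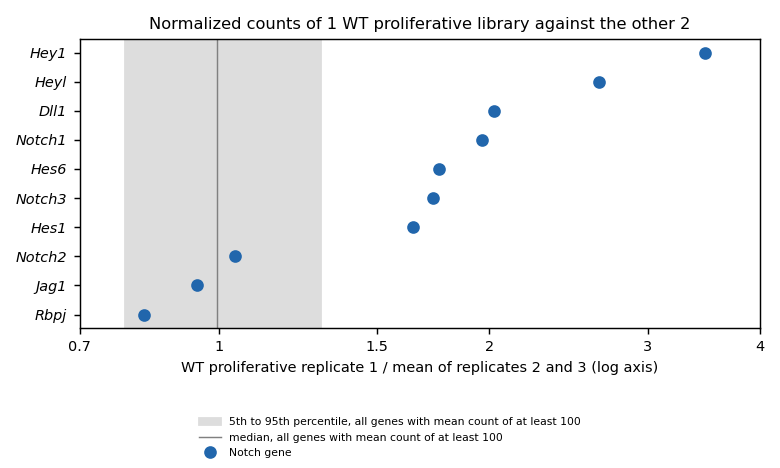
Normalized count of WT proliferative replicate 1 divided by the mean of replicates 2 and 3 (horizontal log axis) for the 10 Notch genes, with the 5th to 95th percentile (grey band, 0.785 to 1.30) and the median (line, 0.996) of 10684 genes. Hey1, Heyl, Dll1, Notch1, Hes6, Notch3 and Hes1 lie right of the band, and Notch2, Jag1 and Rbpj lie inside it.

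RefSeq promoter sequences (GRCm38.p6) were at hand for 7 of the 10 genes, in 10 entries, and not for Hes1, Hey1 and Heyl. The 250 bases before the start site are shown for the Notch3 entry, 1 of the 2 Dll1 entries and both Hes6 entries, which overlap no exon of their gene, because these 3 genes were lower together in Gne KO proliferative cells. Capitals mark CACNAG, the N box that Hes repressors bind, on either strand. The other motif searched was TGGGAA, the core of the site that RBPJ binds, on both strands, and the 2 motifs do not overlap in these windows.
Notch3 (chr17:32166891-32167140, minus strand): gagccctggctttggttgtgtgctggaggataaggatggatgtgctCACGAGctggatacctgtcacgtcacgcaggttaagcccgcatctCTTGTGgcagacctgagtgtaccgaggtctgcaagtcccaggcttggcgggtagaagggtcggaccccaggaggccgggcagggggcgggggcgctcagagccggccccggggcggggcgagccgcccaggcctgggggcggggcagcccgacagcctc
Dll1 (chr17:15376933-15377182, minus strand): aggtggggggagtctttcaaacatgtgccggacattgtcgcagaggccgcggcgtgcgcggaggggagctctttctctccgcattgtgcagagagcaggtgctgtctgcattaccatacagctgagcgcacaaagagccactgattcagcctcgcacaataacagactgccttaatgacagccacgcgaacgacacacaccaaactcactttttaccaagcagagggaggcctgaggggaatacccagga
Hes6 (chr1:91414039-91414288, minus strand): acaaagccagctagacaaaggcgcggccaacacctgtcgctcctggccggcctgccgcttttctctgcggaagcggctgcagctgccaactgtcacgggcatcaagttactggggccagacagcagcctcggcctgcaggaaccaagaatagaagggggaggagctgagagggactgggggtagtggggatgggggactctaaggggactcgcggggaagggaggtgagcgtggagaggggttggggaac
Hes6, inner start site (chr1:91413223-91413472, minus strand): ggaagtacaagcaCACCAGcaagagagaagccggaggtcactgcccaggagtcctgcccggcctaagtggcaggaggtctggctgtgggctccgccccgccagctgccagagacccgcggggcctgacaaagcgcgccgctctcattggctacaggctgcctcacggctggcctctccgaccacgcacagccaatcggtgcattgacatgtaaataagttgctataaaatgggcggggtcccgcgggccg
The Notch3 window holds CACNAG 2 times, with first bases at positions -204 and -159 from the start site, and the Hes6 window of the inner start site holds it 1 time, at -237. The Dll1 window and the other Hes6 window hold neither motif. Over all 10 entries, CACNAG lay in the single windows of Notch1, Notch2 and Notch3 and in 1 of the 2 windows of Hes6, which makes 4 of the 7 genes. TGGGAA lay in both windows of Rbpj alone. The 2 windows overlap, and the site at -65 of the first is the same as that at -205 of the second. The first window holds the motif at -149 too. All 250 bases of the second window lie in exons of the gene. Of 32851 mouse promoter windows of the same length, 36.7% held CACNAG and 21.6% held TGGGAA. These shares count windows, and Dll1, Rbpj and Hes6 had 2 windows each, so the count of genes is not to be set against them.

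Hes1 and Heyl fell in Gne KO cells of both states, by 4.17-fold to 10.6-fold, and Notch1 fell 1.73-fold in the differentiated and 1.70-fold in the proliferative state. In the differentiated state 5 of the 10 genes fell (Notch1, Jag1, Hes1, Hey1 and Heyl) and Rbpj rose at an adjusted p under 0.05, against 12.5% of all genes tested that fell and 11.1% that rose. In the proliferative state 6 fell (Notch1, Notch3, Dll1, Hes1, Heyl and Hes6) and none rose, against 27.2% and 28.2% of all genes. A stricter call also asked that the mean normalized count reach 5 and that the log2 fold change exceed 0.9 plus 7.5 over the square root of this mean. Under it 3 genes were called lower in differentiated cells (Hes1, Hey1 and Heyl), where 3.00% of all genes were called in either direction, and 4 in proliferative cells (Notch3, Dll1, Hes1 and Heyl), where 9.25% were. The median log2 fold change of the 10 genes was -0.52 in differentiated and -0.81 in proliferative cells, against -0.01 and -0.03 over all genes tested. Without WT proliferative replicate 1 the median in proliferative cells was -0.54, and the counts there were again 6 lower and 4 called. After a trend in GC content and length was removed, Hes6 was called lower in proliferative cells beside these 4 (log2 fold change -1.22, limma adjusted p = 2.83e-05). Rbpj then rose (0.80, limma adjusted p = 8.17e-06), and 1132 of all genes were called, against 1889 before.

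**Figure D2:**
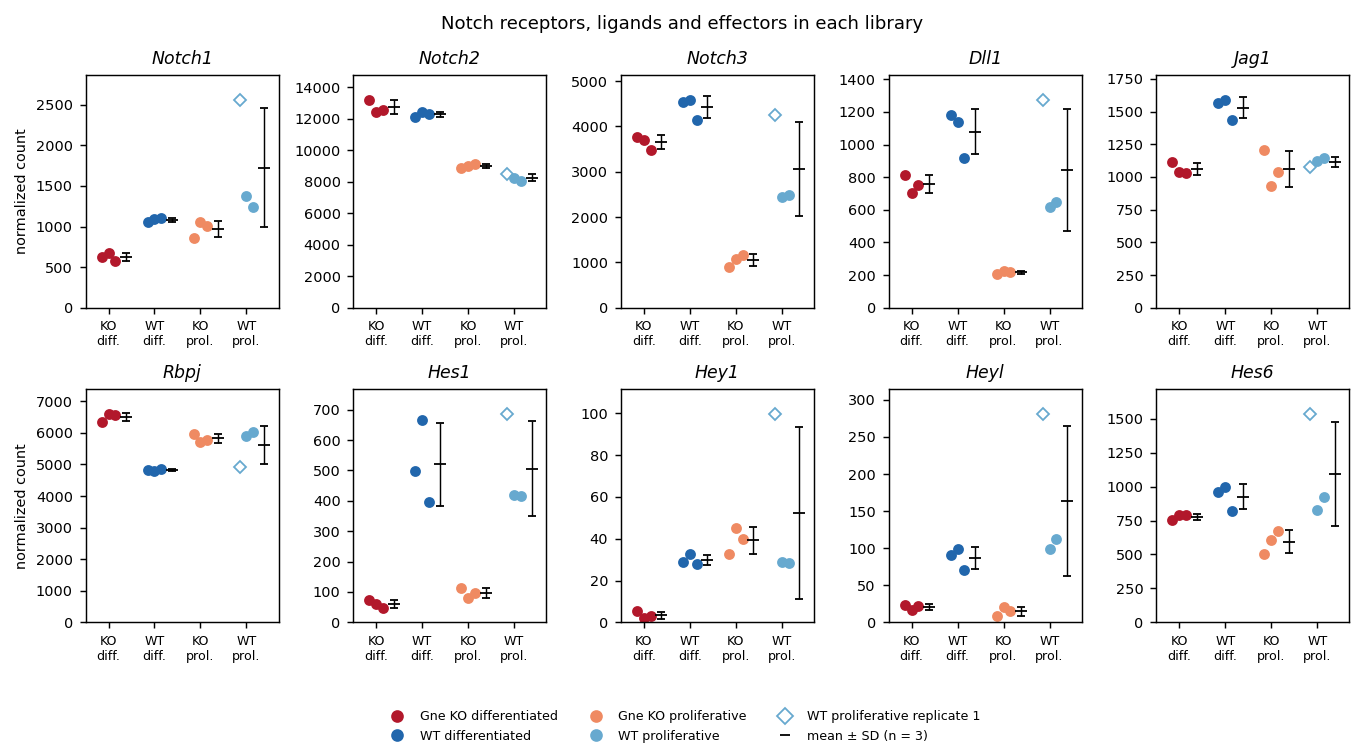
Normalized counts (vertical axes, starting at 0) of the 10 genes in each of the 12 libraries, by group, with the mean and SD of 3 libraries beside them. Hes1 and Heyl are lower in every Gne KO library than in any WT library of either state, and the open diamond of WT proliferative replicate 1 is the highest WT proliferative point in 8 of the 10 panels.

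Notch1 encodes the receptor best studied in satellite cells. It had 630.4, 677 and 575 normalized counts in Gne KO differentiated libraries, against 1051, 1096 and 1100.4 in WT differentiated libraries. It had 861, 1052 and 1008 in Gne KO proliferative libraries, against 2566, 1371 and 1245 in WT proliferative libraries. All 6 Gne KO values lay under the WT values of the same state, and the highest value was that of WT proliferative replicate 1. Gne KO over WT gave a log2 fold change of -0.79 (SE 0.20, limma adjusted p = 0.00942) in differentiated cells. For proliferative cells it was -0.77 (SE 0.19, limma adjusted p = 0.00317), or -0.47 (adjusted p = 0.00134) without replicate 1.

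Notch2 was the most abundant of the 10 genes and differed little by genotype. It had 13207, 12388 and 12563 normalized counts in Gne KO differentiated libraries, against 12077, 12436 and 12261 in WT differentiated libraries. It had 8845, 8996 and 9127 in Gne KO proliferative libraries, against 8469, 8212 and 8024 in WT proliferative libraries. Neither difference passed the test (log2 fold change 0.05, adjusted p = 0.602, and 0.13, limma adjusted p = 0.104), although the proliferative groups did not overlap. Without Gne KO proliferative replicate 1 the proliferative difference passed (0.14, adjusted p = 0.0279). Without WT replicate 1 it was 0.11 (adjusted p = 0.226). The sign of the proliferative value turned to -0.06 with library size alone as the scale and to -0.05 after a trend in GC content and length was removed.

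Notch3 encodes a receptor known from vascular mural cells and from satellite cells, and mice without it overgrow muscle after repeated injury. It had 3777, 3690.2 and 3480.5 normalized counts in Gne KO differentiated libraries, against 4539.6, 4593.5 and 4142 in WT differentiated libraries. It had 899.9, 1068 and 1169.7 in Gne KO proliferative libraries, against 4260.3, 2440.1 and 2484 in WT proliferative libraries. Gne KO values were the lower ones in both states, and the gap was wider in proliferative cells, at 2.86-fold (log2 fold change -1.51, SE 0.17, limma adjusted p = 2.17e-06), or 2.44-fold (adjusted p = 1.90e-07) without replicate 1. In differentiated cells the log2 fold change was -0.28 (SE 0.16, limma adjusted p = 0.230), with no overlap between the groups. That difference passed without WT proliferative replicate 1 (adjusted p = 0.0236) and with only the 6 differentiated libraries in the fit (adjusted p = 0.000125). The SE was 0.09 without that library, against 0.16 with it.

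Dll1 encodes the Delta ligand that myogenic cells present to satellite cells. It had 813, 705 and 750.3 normalized counts in Gne KO differentiated libraries, against 1178, 1141 and 919 in WT differentiated libraries. It had 208, 223 and 219 in Gne KO proliferative libraries, against 1276, 616 and 645 in WT proliferative libraries. The 3 Gne KO proliferative values were the lowest of all 12 and averaged 217 ± 7.70 (SD, n = 3). The log2 fold change in proliferative cells was -1.90 (SE 0.24, limma adjusted p = 9.46e-06), or -1.58 (adjusted p = 3.09e-07) without replicate 1. In differentiated cells it was -0.51 (SE 0.20, limma adjusted p = 0.0750), and -0.52 (adjusted p = 0.00107) without WT proliferative replicate 1, a library of neither differentiated group.

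Jag1, the Jagged ligand, differed by genotype in the differentiated state. It had 1116, 1037 and 1032 normalized counts in Gne KO differentiated libraries, against 1564, 1593 and 1438.5 in WT differentiated libraries (log2 fold change -0.53, SE 0.09, limma adjusted p = 0.000505). In proliferative cells the groups overlapped, with 1206, 934 and 1036 in Gne KO libraries, against 1073, 1123.5 and 1144 in WT libraries. That difference did not pass (log2 fold change -0.08, SE 0.09, limma adjusted p = 0.515), nor without replicate 1 (-0.14, adjusted p = 0.276), but it did with library size alone as the scale, at -0.27 (adjusted p = 0.0482).

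Rbpj, which encodes the DNA-binding partner of the receptor's intracellular part, went the other way in differentiated cells. It had 6359, 6596 and 6577.5 normalized counts in Gne KO differentiated libraries, against 4838, 4778 and 4863 in WT differentiated libraries (log2 fold change 0.43, SE 0.08, limma adjusted p = 0.000753). It had 5972, 5716 and 5784 in Gne KO proliferative libraries, against 4927, 5916 and 6029 in WT proliferative libraries, and the groups overlapped. The proliferative log2 fold change was 0.06 (SE 0.08, limma adjusted p = 0.560) and turned to -0.08 without replicate 1 and to -0.13 with library size alone. After removal of the GC content and length trend it was 0.80 (adjusted p = 8.17e-06). Across 10676 genes the genotype log2 fold changes had a Spearman correlation with GC content of 0.145 in differentiated and 0.605 in proliferative cells, and Rbpj has the lowest GC content of the 10 genes (43.7%).

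Hes1 encodes the repressor most widely used as a readout of Notch activity, and it is also driven by other signals. It had 72.2, 60.5 and 47.4 normalized counts in Gne KO differentiated libraries, against 498, 667 and 395 in WT differentiated libraries. It had 112, 79.8 and 96.8 in Gne KO proliferative libraries, against 685.5, 418.5 and 414 in WT proliferative libraries. The lowest WT value was more than 3 times the highest Gne KO value. Hes1 fell 8.53-fold in differentiated cells (log2 fold change -3.09, SE 0.30, limma adjusted p = 2.23e-06). In proliferative cells it fell 5.18-fold (log2 fold change -2.37, SE 0.27, limma adjusted p = 3.11e-06), or 4.45-fold (adjusted p = 2.67e-06) without replicate 1.

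Heyl, a Hey family target that myogenic cells induce under Notch signalling, was low in Gne KO cells of both states. It had 23.5, 16.2 and 21.4 normalized counts in Gne KO differentiated libraries, against 91.1, 98.97 and 70.2 in WT differentiated libraries. It had 8.89, 20.8 and 15.1 in Gne KO proliferative libraries, against 281, 98.8 and 113 in WT proliferative libraries. The raw counts behind the Gne KO values were 15 to 27 in differentiated and 9 to 18 in proliferative libraries, so each rests on few reads. The log2 fold change was -2.06 (SE 0.47, limma adjusted p = 0.00475) in differentiated cells. In proliferative cells it was -3.41 (SE 0.52, limma adjusted p = 4.41e-05), a 10.6-fold fall, or 7.57-fold (adjusted p = 2.16e-06) without replicate 1.

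Hey1, the other Hey family target, fell in differentiated cells. It had 5.22, 2.16 and 2.79 normalized counts in Gne KO differentiated libraries (6, 2 and 3 raw counts), against 28.8, 32.7 and 28.1 in WT differentiated libraries. The log2 fold change was -3.02 (SE 0.66, limma adjusted p = 0.00344), which at these counts is imprecise. Among proliferative cells Hey1 had 32.6, 45.1 and 39.8 in Gne KO libraries, against 99.7, 28.9 and 28.5 in WT libraries. The Gne KO values lay between WT replicate 1 and WT replicates 2 and 3, and the log2 fold change of -0.25 (SE 0.38, limma adjusted p = 0.607) turned to 0.38 (adjusted p = 0.249) without replicate 1.

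Hes6 differs from the other effectors in that it is known to promote differentiation and to oppose Hes1. It had 753, 793 and 791 normalized counts in Gne KO differentiated libraries, against 960.3, 997 and 819.5 in WT differentiated libraries. It had 505, 607 and 671.5 in Gne KO proliferative libraries, against 1535, 827 and 921 in WT proliferative libraries. The groups did not overlap in either state. The proliferative difference passed (log2 fold change -0.85, SE 0.18, limma adjusted p = 0.000913), also without replicate 1 at -0.61 (adjusted p = 0.000802). The differentiated one did not (log2 fold change -0.25, SE 0.18, limma adjusted p = 0.355), and it passed with only the 6 differentiated libraries in the fit (adjusted p = 0.00708).

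**Figure D3:**
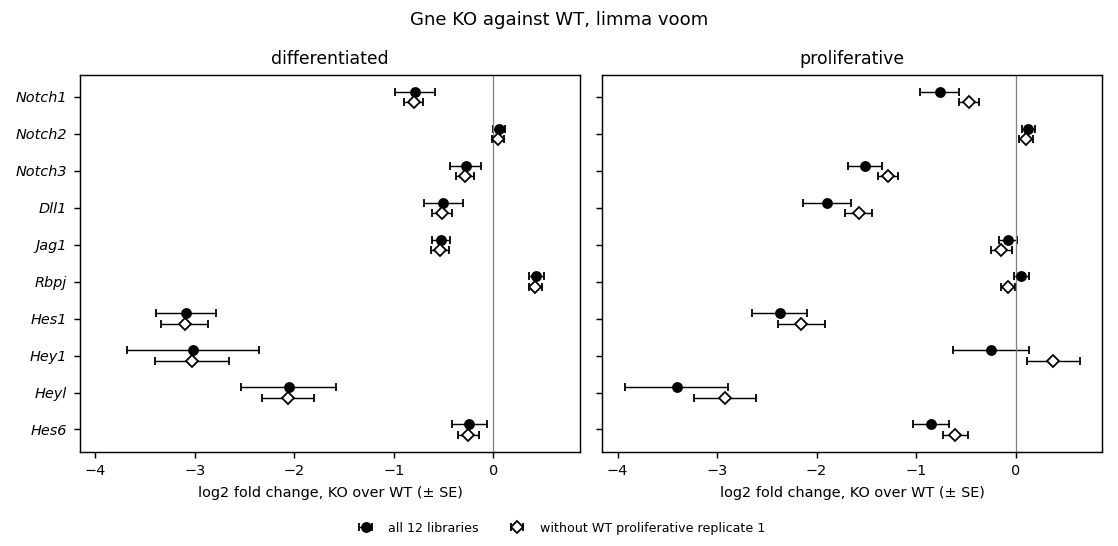
Log2 fold change of Gne KO over WT (horizontal axes) with its SE for the 10 genes in differentiated (left) and proliferative (right) cells, from the fit of all 12 libraries (filled circles) and without WT proliferative replicate 1 (open diamonds). Hes1 and Heyl lie at or below -2.06 in both states with all libraries, Hey1 only in differentiated cells, and the open diamond of Hey1 in proliferative cells lies at 0.38.

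The second question was how the 10 genes differ between the 2 states of each genotype. In Gne KO cells 3 genes rose (Notch2, Notch3 and Dll1) and 2 fell (Notch1 and Hey1) in differentiated against proliferative cells, where 28.7% of all genes tested rose and 27.7% fell. Notch3 and Dll1 were called higher and Hey1 lower under the stricter limit, which 11.7% of all genes met. In WT cells 3 rose (Notch2, Notch3 and Jag1) and 2 fell (Notch1 and Rbpj), where 16.6% of all genes rose and 15.3% fell, and none of the 10 met the stricter limit, which 2.70% of all genes met. The comparisons of state share their libraries with the comparisons of genotype above and are no independent check of them.

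Notch3 averaged 3649 ± 152 normalized counts in Gne KO differentiated and 1046 ± 136 in Gne KO proliferative cells (SD, n = 3 each), which is 1.81 on the log2 scale (SE 0.17, limma adjusted p = 1.87e-07). In WT cells it averaged 4425 ± 247 in the differentiated and 3061.5 ± 1038.5 in the proliferative state, a log2 fold change of 0.58 (SE 0.16, limma adjusted p = 0.0107), with overlapping groups, or 0.81 (adjusted p = 1.91e-05) without replicate 1, which is the value that overlaps. That WT call was lost without WT proliferative replicate 2 or 3 or WT differentiated replicate 1 (adjusted p = 0.0550 to 0.0684). Dll1 averaged 756 ± 54.3 in Gne KO differentiated and 217 ± 7.70 in Gne KO proliferative cells (log2 fold change 1.80, SE 0.24, limma adjusted p = 1.10e-05). In WT cells Dll1 averaged 1079 ± 140.2 in the differentiated and 845.5 ± 373 in the proliferative state, and its log2 fold change of 0.41 did not pass (limma adjusted p = 0.128) but did without replicate 1, at 0.73 (adjusted p = 0.000175). Both genes were thus furthest below WT in proliferative Gne KO cells.

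Hey1 averaged 3.39 ± 1.61 normalized counts in Gne KO differentiated and 39.2 ± 6.28 in Gne KO proliferative cells, which is -3.39 on the log2 scale (SE 0.66, limma adjusted p = 0.000349). In WT cells its log2 fold change was -0.62 (SE 0.39, limma adjusted p = 0.261), and 0.02 without replicate 1. Hes1 and Heyl did not pass in either genotype. The log2 fold change of Hes1 was -0.69 in Gne KO cells (limma adjusted p = 0.115), which passed without WT proliferative replicate 1 (adjusted p = 0.0464), and 0.03 in WT cells (adjusted p = 0.926), or 0.26 (adjusted p = 0.315) without replicate 1. That of Heyl was 0.53 in Gne KO cells (limma adjusted p = 0.499) and -0.82 in WT cells (adjusted p = 0.0621), or -0.33 without replicate 1, and it passed at -1.10 and -1.01 without WT proliferative replicates 2 and 3 in turn. The WT value of Heyl also passed after removal of the GC content and length trend (-0.92, limma adjusted p = 0.0256). Hes6 likewise did not pass (log2 fold change 0.40 in Gne KO and -0.20 in WT cells, limma adjusted p = 0.0762 and 0.419). Without WT proliferative replicate 1 it passed in Gne KO cells (adjusted p = 0.00624) and was 0.05 in WT cells (adjusted p = 0.812). In Gne KO cells Hes6 also passed with library size alone (0.66, limma adjusted p = 0.00783) and after removal of the GC content and length trend (0.68, adjusted p = 0.00350).

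Among the receptors, Notch1 was lower in the differentiated state of both genotypes, with log2 fold changes of -0.63 (limma adjusted p = 0.0150) in Gne KO and -0.61 (adjusted p = 0.0231) in WT cells, or -0.31 (adjusted p = 0.0349) in WT cells without replicate 1. In Gne KO cells this fall did not pass with library size alone as the scale (-0.37, adjusted p = 0.158), a scale that moved the median of all genes in that comparison to 0.34. It was also lost without Gne KO proliferative replicate 2 or 3 or Gne KO differentiated replicate 3 (adjusted p = 0.0532 to 0.0567), and the WT fall was lost without any 1 of the 3 WT differentiated replicates (adjusted p = 0.0557 to 0.0580). Notch2 was higher in the differentiated state, with log2 fold changes of 0.50 (limma adjusted p = 4.85e-06) in Gne KO and 0.57 (adjusted p = 5.31e-06) in WT cells, or 0.56 (adjusted p = 2.54e-05) in WT cells without replicate 1. Jag1 rose in WT cells (0.46, limma adjusted p = 0.00108, or 0.40, adjusted p = 0.00857, without replicate 1). It had a value of 0.01 in Gne KO cells (limma adjusted p = 0.943), which passed with library size alone as the scale, at 0.28 (adjusted p = 0.0382). Rbpj had 0.16 in Gne KO cells (limma adjusted p = 0.0924), which became -0.54 (adjusted p = 0.000198) after removal of the GC content and length trend. As a rise it passed without WT proliferative replicate 1 (adjusted p = 0.0454) and with library size alone (0.43, adjusted p = 0.000274). It also passed with median-ratio size factors (0.20, limma adjusted p = 0.03845). The same held without a filter beyond 1 count (0.22, adjusted p = 0.0194) and with 10 counts in 3 libraries (0.25, adjusted p = 0.00944). In WT cells Rbpj fell by 0.21 on the log2 scale (limma adjusted p = 0.0492), or by 0.34 (adjusted p = 0.00198) without replicate 1. The call with all libraries was lost with library size alone (adjusted p = 0.138) and without any 1 of WT proliferative replicates 2 and 3, the 3 WT differentiated replicates or Gne KO differentiated replicates 1 and 3 (adjusted p = 0.0612 to 0.205).

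**Figure D4:**
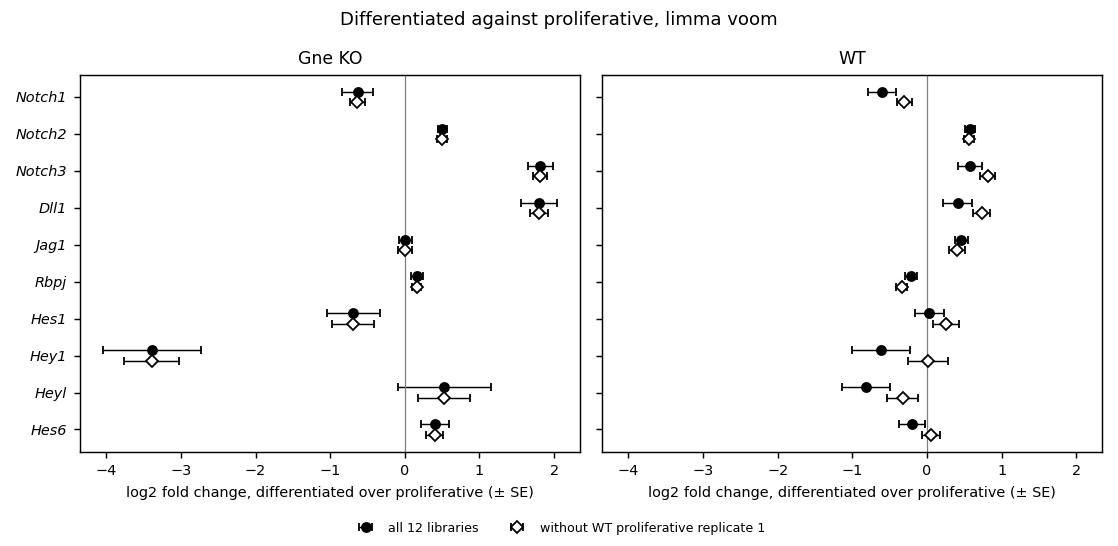
Log2 fold change of differentiated over proliferative cells (horizontal axes) with its SE for the 10 genes in Gne KO (left) and WT (right) cells, with all 12 libraries (filled circles) and without WT proliferative replicate 1 (open diamonds). Notch3 and Dll1 lie at 1.81 and 1.80 in Gne KO cells and at 0.58 and 0.41 in WT cells, and Hey1 lies at -3.39 and -0.62.

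The interaction term tested whether the effect of Gne KO differed between the states. It passed for 5 of the 10 genes, 3 with a higher value in differentiated cells (Notch3, Dll1 and Rbpj) and 2 with a lower one (Jag1 and Hey1), where 19.7% of all genes tested were higher and 22.2% lower. The difference of the log2 fold changes was 1.24 for Notch3 (SE 0.23, limma adjusted p = 0.000551) and 1.39 for Dll1 (SE 0.31, adjusted p = 0.00229). For Hey1 it was -2.77 (SE 0.77, limma adjusted p = 0.00876). These 3 also met the stricter limit, as did 8.53% of all genes. Without WT proliferative replicate 1 the values were 1.00 for Notch3, 1.06 for Dll1 and -3.41 for Hey1, all past the test, and of the 3 Hey1 alone met the stricter limit. Hes1 had -0.72 (limma adjusted p = 0.172), which passed without replicate 1 at -0.95 (adjusted p = 0.0329). Heyl had 1.35 (limma adjusted p = 0.138), or 0.85 (adjusted p = 0.106) without replicate 1, and Notch1 -0.03 (adjusted p = 0.949), or -0.33 (adjusted p = 0.0730). Hes6 had 0.60 (limma adjusted p = 0.0674), or 0.35 (adjusted p = 0.101) without replicate 1, and passed without WT proliferative replicate 2 or 3 (0.78 and 0.70). It also passed with library size alone (0.82, limma adjusted p = 0.0219) and with 10 counts in 3 libraries (0.69, adjusted p = 0.0390). After removal of the GC content and length trend Hes6 passed at 1.03 (limma adjusted p = 0.00355). Heyl then passed too, at 1.815 (limma adjusted p = 0.047), and met the stricter limit.

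Per kilobase of annotated exon, Notch2 ranked first of the 10 genes in each group, at 1179.7 ± 40.0 normalized counts per kb in Gne KO differentiated, 1136.9 ± 16.6 in WT differentiated, 833.7 ± 13.1 in Gne KO proliferative and 763.8 ± 20.7 in WT proliferative cells (SD, n = 3 each). Hey1 and Heyl were the lowest 2 in each group, at 1.04 and 3.98 in Gne KO differentiated and 9.14 and 17.0 in WT differentiated cells. In proliferative cells they were at 11.99 and 2.92 in Gne KO and at 16.0 and 32.1 in WT cells, and in WT cells their ranges overlapped. Hes1 was eighth in both Gne KO groups, at 29.5 and 47.2 per kb in the differentiated and the proliferative state, and in the proliferative state its range overlapped that of Dll1 above it. In WT cells it was seventh (255 per kb) and, in proliferative cells, the fifth (248 per kb). In differentiated Gne KO cells the ranges of Notch3 and Hes6 overlapped, as did those of Jag1 and Dll1. In differentiated WT cells those of Notch3 and Hes6 overlapped, and the ranges of Dll1 and Hes1 overlapped with their neighbours Jag1 and Dll1, and in proliferative WT cells, where replicate 1 widens the ranges, those of all neighbours from Notch2 down to Jag1 overlapped.

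Likeness of pattern was measured as the Euclidean distance between log2 CPM values, centred on each gene's mean over the 12 libraries. Candidates were tested genes with a mean of at least 100, leaving out the Notch genes described above. Distances between these Notch genes are not given, and some of them can be nearer to each other than to any gene named here. The nearest gene to Hey1 was Myod1 (distance 0.91), a myogenic transcription factor, and the nearest to Heyl were Chrna1 (1.62), a subunit of the muscle acetylcholine receptor, Stac3 (1.66), which takes part in excitation-contraction coupling, and Tenm4 (1.71). The nearest to Notch3 were Tmem88b (0.77), Plxna2 (0.84) and Tspan12 (0.87), and the nearest to Dll1 were Ccdc141 (0.78), the muscle transcription factor Mef2a (0.79) and Atp2b4 (0.89). Hes1 had Glipr1 (1.28), Drp2 (1.35) and Eng (1.36) as its nearest genes, at larger distances than Notch1 (E2f2, 0.61), Hes6 (Nckap5l, 0.52), Jag1 (Slc43a1, 0.39), Notch2 (Synrg, 0.25) or Rbpj (Mllt6, 0.23).

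A list of 64 other genes of the pathway was examined in the same fit, of which 58 were tested. The targets Hes5 and Hey2 and the ligand Dll3 were among the 6 not tested, with 0, 1 and 7 counts over all libraries. Of the 58 genes, 14 rose and 8 fell in Gne KO differentiated against WT differentiated cells, beside the 11.1% and 12.5% of all genes given above, and 23 rose and 15 fell in the proliferative state, beside 28.2% and 27.2%. Their median log2 fold change was 0.11 in both states. Under the stricter limit 2 were called in differentiated cells (both lower), where 3.00% of all genes were, and 5 in proliferative cells (2 higher, 3 lower), where 9.25% were. After removal of the GC content and length trend 3 were called in proliferative cells. These were Jag2 and Neurl1b of the 5 and, in place of Lfng, Mib1 and Kdm5a, Snw1, a transcriptional coregulator (log2 fold change 1.10, against 0.30 before the removal), a gene named after its values were seen. In differentiated against proliferative cells 21 rose and 22 fell in Gne KO cells, beside 28.7% and 27.7% of all genes, and 12 rose and 14 fell in WT cells, beside 16.6% and 15.3%. The interaction passed for 16 higher and 18 lower, beside 19.7% and 22.2%. The proliferative counts became 18 higher and 23 lower with library size alone, where the median of all genes was -0.21.

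Jag2, a ligand, was low in Gne KO cells of both states. It had 51.3, 76.7 and 58.5 normalized counts in Gne KO differentiated libraries, against 147, 155 and 124 in WT differentiated libraries (log2 fold change -1.22, SE 0.21, limma adjusted p = 0.000567). It had 46.4, 49.7 and 68.9 in Gne KO proliferative libraries, against 255, 172 and 186 in WT proliferative libraries (log2 fold change -1.91, SE 0.22, limma adjusted p = 3.09e-06), or -1.76 (adjusted p = 5.62e-06) without replicate 1. The groups did not overlap in either state.

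The Fringe genes encode the sugar transferases that act on the receptors. Lfng had 91.3, 82.1 and 105 normalized counts in Gne KO differentiated libraries, against 153.5, 154 and 192 in WT differentiated libraries (log2 fold change -0.83, SE 0.22, limma adjusted p = 0.0118). In proliferative cells it was on the other side of WT, with 872, 868.5 and 1127 in Gne KO libraries, against 444, 385 and 289 in WT libraries (log2 fold change 1.36, SE 0.14, limma adjusted p = 1.36e-06), or 1.46 (adjusted p = 1.84e-06) without replicate 1. The rise was under the stricter limit with library size alone (1.17), after removal of the GC content and length trend (0.99) and without WT proliferative replicate 3 (1.19) or Gne KO proliferative replicate 3 (1.23). The interaction for Lfng was -2.19 (SE 0.26, limma adjusted p = 1.51e-05), or -2.30 (adjusted p = 7.36e-06) without replicate 1. Mfng was near the limit of detection, at 0 to 0.929 in Gne KO differentiated libraries, against 12.04 to 14.9 in WT differentiated libraries (limma adjusted p = 0.000556), and its fold is not given because of the counts at 0. It was not called under the stricter limit without WT differentiated replicate 1 or 2 (limma adjusted p = 0.00194 and 0.00223). In proliferative cells Mfng had 0 to 4.30 in Gne KO and 3.33 to 11.3 in WT libraries, with overlapping groups. That fall passed (limma adjusted p = 0.0153), but not without replicate 1 (adjusted p = 0.0563).

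Mib1 and the Neuralized genes encode ubiquitin ligases that act on ligands. Mib1 had 5377 to 5499 normalized counts in Gne KO differentiated libraries, against 5256 to 5677 in WT differentiated libraries. In proliferative cells it had 2689, 1437 and 1554 in Gne KO libraries, against 5715, 5467.5 and 5455 in WT libraries (log2 fold change -1.61, SE 0.16, limma adjusted p = 5.81e-07), or -1.62 (adjusted p = 2.45e-06) without replicate 1. After removal of the GC content and length trend it was -0.88 (adjusted p = 5.39e-06), under the stricter limit. Neurl1a had 113.5 to 153 in Gne KO differentiated libraries, against 743 to 1015 in WT differentiated libraries (log2 fold change -2.76, SE 0.28, limma adjusted p = 3.01e-06). In proliferative cells it had 393 to 647 in Gne KO and 576 to 1094.5 in WT libraries, with overlapping groups. That difference passed (log2 fold change -0.66, limma adjusted p = 0.0185), but not without replicate 1 (-0.41, adjusted p = 0.0824). Its interaction was -2.10 (limma adjusted p = 0.000260), or -2.36 (adjusted p = 1.42e-05) without replicate 1. Neurl1b was higher in Gne KO proliferative cells, with 296, 239 and 309, against 53.7, 75.5 and 52.5 in WT proliferative libraries (log2 fold change 2.23, SE 0.17, limma adjusted p = 6.18e-08), or 2.104 (adjusted p = 8.06e-07) without replicate 1. In differentiated cells Neurl1b had 138 to 150.4 in Gne KO and 140.1 to 151 in WT libraries, with overlapping groups.

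Kdm5a, a histone demethylase that acts with RBPJ in repression, had 3085, 3163 and 3168.5 normalized counts in Gne KO differentiated libraries, against 2789, 2776 and 2779 in WT differentiated libraries. The groups did not overlap, but that difference did not pass (log2 fold change 0.17, SE 0.14, limma adjusted p = 0.397). After removal of the GC content and length trend it passed (0.28, limma adjusted p = 0.0236). Proliferative cells had 1371, 771 and 848 in Gne KO libraries, against 2180.4, 2284 and 2417 in WT libraries. The proliferative log2 fold change was -1.24 (SE 0.14, limma adjusted p = 3.34e-06), or -1.32 (adjusted p = 8.45e-06) without replicate 1, and -0.40 (adjusted p = 0.00273) after removal of the GC content and length trend, under the stricter limit.

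**Figure D5:**
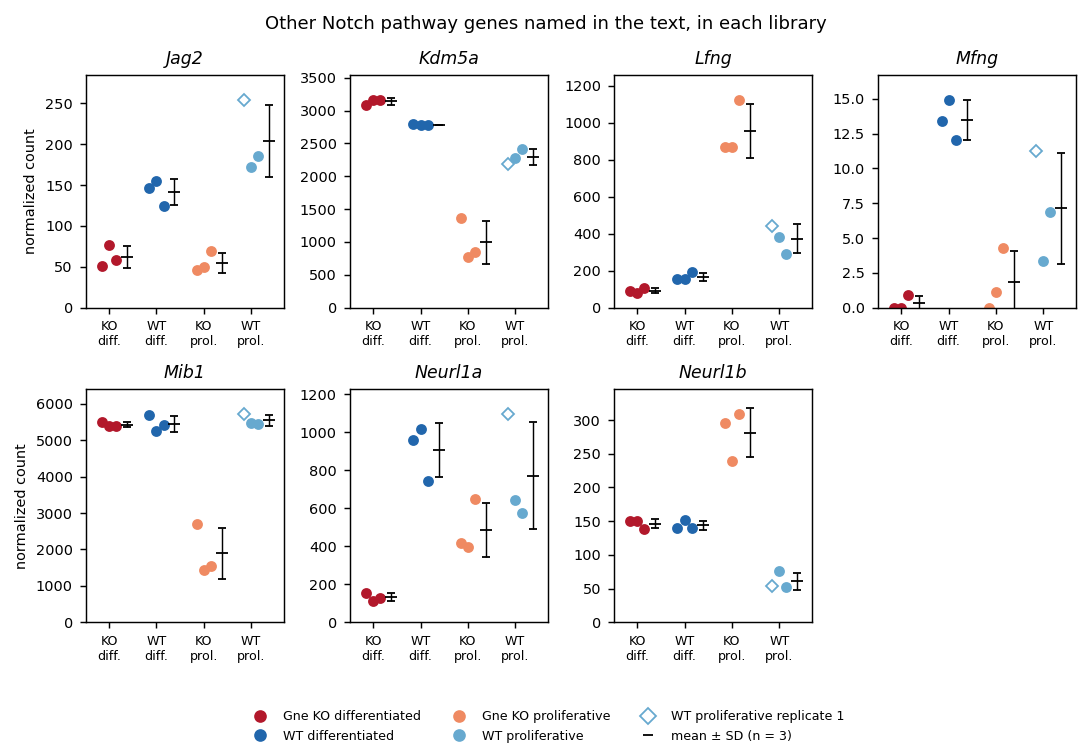
Normalized counts (vertical axes, starting at 0) of the 7 other pathway genes named in the text, in each of the 12 libraries by group, with the mean and SD of 3 libraries. The Gne KO and WT points of Neurl1a, Mfng, Jag2 and Kdm5a are apart in differentiated cells. Those of Mib1, Neurl1b, Jag2 and Kdm5a are apart in proliferative cells. Lfng is lower than WT in differentiated and higher in proliferative Gne KO cells.

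All 10 genes are protein-coding, and the annotation in the deposited table places them in GRCm38. Among the receptors it has Notch1 (ENSMUSG00000026923) from 26457903 to 26516663 on the minus strand of chromosome 2, Notch2 (ENSMUSG00000027878) from 98013527 to 98150361 on the plus strand of chromosome 3 and Notch3 (ENSMUSG00000038146) from 32120820 to 32166880 on the minus strand of chromosome 17. The ligands are Dll1 (ENSMUSG00000014773) from 15367354 to 15376872 on the minus strand of chromosome 17 and Jag1 (ENSMUSG00000027276) from 137081456 to 137116644 on the minus strand of chromosome 2. The mediator is Rbpj (ENSMUSG00000039191) from 53466152 to 53657362 on the plus strand of chromosome 5. The effectors are Hes1 (ENSMUSG00000022528) from 30064384 to 30067796 on the plus strand of chromosome 16, Hey1 (ENSMUSG00000040289) from 8663359 to 8667256 on the minus strand of chromosome 3, Heyl (ENSMUSG00000032744) from 123233556 to 123249875 on the plus strand of chromosome 4 and Hes6 (ENSMUSG00000067071) from 91411483 to 91414038 on the minus strand of chromosome 1. Other annotated genes overlap Notch1, Notch2, Notch3, Dll1 and Rbpj, and the strand setting of the counting is not given in the sources used, so reads of these genes and of their overlapping partners cannot be told apart with certainty. Jag1, Hes1, Hey1, Heyl and Hes6 overlap no other annotated gene.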

How the data were processed

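The libraries were stranded mRNA libraries read from 1 end. The authors trimmed the reads (cutadapt 1.18), aligned them to GRCm38 (TopHat2 2.1.1), made gene counts (HTSeq 0.6.1) and compared groups with DESeq2 1.22.1, tools that the submitters' notes list. The authors deposited 1 table of 54838 genes with raw counts, normalized counts and their own fold changes and p-values. The raw counts alone were used, and the authors' comparisons were not. A question mark stands in place of the raw counts of 6252 genes, which left 48586.

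Genes with a count sum of at least 10 over the 12 libraries were kept. A normalized count is the raw count divided by the library size times its TMM factor (30% of log ratios and 5% of levels trimmed), times the mean scaled size. Groups came from the sample titles and entered 1 fit by limma's voom (limma 3.58.1 under R 4.3.3), with p-values adjusted by Benjamini and Hochberg over all 20415 genes. "Rose", "fell" and "passed" mean an adjusted p under 0.05. At these depths the median SE for Gne KO against WT was 0.107 (log2) in the differentiated and 0.108 in the proliferative state for genes with a mean of at least 100. The test was checked on simulated data. The simulation gave every gene the same dispersion and held no deviating library and no GC content trend. It therefore does not check the test under these features of the data.

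Sample titles number the 3 libraries as biological replicates, and the study describes independent cultures as well as triplicates. P-values measure the spread between such libraries of 1 line and 1 clone. Replicate pairs differed by a chi-square of 6.33 to 151 per gene, more than sampling noise. Their library numbers do not pair the samples. The 10 genes, the list of 64 other pathway genes and the markers were chosen with earlier results of these data known. All 10 genes are named in each comparison. Other pathway genes are named if called in Gne KO against WT in either state, and nearest genes by distance. Alternatives were other scalings, filters, limma-trend, quality weights, only the 6 libraries compared, a replicate block, removal of a GC content and length trend, and each library left out.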

Additional observations from a re-analysis of the deposited data

Results flagged for a closer look

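The effect of Gne KO on 5 of the 10 genes differed between differentiated and proliferative cells by the interaction term of the fit (adjusted p under 0.05 from limma). The difference of the log2 fold changes, differentiated minus proliferative, was 1.24 for Notch3, 1.39 for Dll1 and 0.37 for Rbpj. It was -0.45 for Jag1 and -2.77 for Hey1. Without WT proliferative replicate 1 these values were 1.00 for Notch3, 1.06 for Dll1, 0.50 for Rbpj, -0.39 for Jag1 and -3.41 for Hey1, and all 5 passed. After removal of the GC content and length trend the value for Rbpj was -0.28 and that for Jag1 was -0.30, and neither passed (limma adjusted p = 0.135 and 0.0833). With library size alone Jag1 did not pass either (-0.23, limma adjusted p = 0.240).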

How the results depend on the processing

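Of 1090 log2 fold changes of the 10 genes under the alternatives, 977 kept their direction and their side of the threshold, 27 lost and 45 gained significance and 41 changed sign. Each of the 12 libraries was left out in every comparison, also where it belonged to neither group compared. Such fits keep all libraries of the groups compared, so the 977 do not measure robustness. In Gne KO against WT, proliferative, Notch2 had -0.061 with library size alone and -0.049 after removal of the GC content and length trend, with or without the replicate block. Rbpj had -0.13 with library size alone, -0.018 with a count of 10 in 3 libraries and -0.018 with quality weights, and Hey1 had 0.31 with quality weights. With 1 library left out the ranges there were -0.175 to 0.009 for Jag1, -0.076 to 0.11 for Rbpj and -0.55 to 0.38 for Hey1. In differentiated against proliferative Gne KO cells Rbpj had -0.54 after removal of the trend, with or without the block, and Jag1 ranged over -0.076 to 0.11 with 1 library left out. In WT cells Hes1 had -0.10 after removal of the trend, -0.10 with the block too, and Hes6 had 0.048 with quality weights. With 1 library left out Hes1 ranged over -0.17 to 0.26, Hey1 over -0.92 to 0.017 and Hes6 over -0.38 to 0.048. The interaction of Notch1 was 0.003 with median-ratio size factors, 0.19 with library size alone, 0.046 without a filter beyond 1 count, 0.055 with 10 counts in 3 libraries, 0.20 after removal of the trend and 0.20 with the block too, and -0.33 to 0.17 with 1 library left out. That of Notch2 was 0.15 with library size alone, 0.011 with 10 counts in 3 libraries, 0.19 after removal of the trend and 0.19 with the block too. That of Rbpj was -0.28 after removal of the trend and -0.28 with the block too. None of these values had passed the test in the fit of all libraries, other than the interaction of Rbpj, and the cause was not tested.

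The number of genes past the test was 4 to 8 in differentiated against proliferative Gne KO cells with 1 library left out (8 without WT proliferative replicate 1, against 5 with all). In WT cells it was 2 to 6, with 2 without WT differentiated replicate 1 and 3 without replicate 2 or 3, against 5. The genes called in the interaction were 1 to 3, with 1 without WT proliferative replicate 1, and 1 with quality weights, against 3 with all libraries. All genes called in Gne KO against WT, proliferative, were 1889, or 1132 after removal of the trend and 1114 with the block too, and in the interaction 1742, or 1066 and 1059. Without Gne KO proliferative replicate 1 they were 2509 in Gne KO against WT, proliferative, and 2379 in the interaction.

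Library numbers were shared by the groups, and the deviations of same-numbered libraries correlated at -0.254 to 0.11. With the replicate block 7 of the 10 genes passed in Gne KO against WT, differentiated, in place of 6, and 6 in differentiated against proliferative Gne KO cells in place of 5. The low raw counts of Hey1 and Heyl in Gne KO cells limit the precision of their values.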
